A study of Mus musculus with 12 samples.

Results

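The mitosis genes are 34 mouse genes whose products enter, build, guard or finish cell division. The rule for membership is a list of names, sorted by what the products do, and uses no measured value, but the list was drawn up with earlier results of these data known. For 33 of them the arrays held at least 1 probe set (a group of short probes for 1 transcript) that named that gene and no other, and Ccnb1, which encodes cyclin B1, had none, so its level was not analysed here, although its promoter enters the motif counts. The 33 measured genes were part of 18193 genes measured in the same way.

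The series compared CD8 T cells from mice of the strain given as C57bl/c, aged 6 to 8 weeks, on 12 arrays. Naive cells came from the spleens of naive mice (n = 5). The other cells were tumour-infiltrating lymphocytes (TIL) from mice carrying B16F10-GP, a line of the B16F10 mouse melanoma, sorted at day 17 to 19 after injection into the flank. The Tim-3- group (n = 3) held PD-1+ cells without Tim-3 and 2B4, called stem-like in the labels, and the Tim-3+ group (n = 4) held PD-1+ cells with both, called exhausted. PD-1 is an inhibitory receptor of stimulated T cells, and Tim-3 and 2B4 are receptors that are commonly high on exhausted T cells. The title of the series names the proliferative burst of CD8 T cells after PD-1 therapy, but none of the groups is described as treated. The naive and TIL groups differ in tissue, tumour, enzyme digestion and sort at once. The labels do not say which arrays come from separate mice or from pooled mice, so the p-values measure the spread between these arrays, which may be technical.

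In mitosis the cyclin-dependent kinase Cdk1, bound to A- and B-type cyclins, drives a cell to condense its chromosomes and build a spindle of microtubules. Kinetochores on the centromeres attach the chromosomes to the spindle, a checkpoint holds the cell until all are attached, and the anaphase-promoting complex then marks cyclins and other proteins for destruction so that the sister chromatids part. Naive T cells rest outside the cycle, and T cells that meet antigen divide fast, so transcripts of these genes are widely used to follow division in T cells.

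Many mitosis genes share short elements near their start sites that hold them off in resting cells and switch them on late in the cycle, in particular the CHR element, written TTTGAA here, and CCAAT boxes. The 250 bases before the start site are printed for 8 members, chosen to show promoters with both motifs, from the mitotic kinase, its cyclin, both activators of anaphase, a topoisomerase, a spindle motor and Ki-67, and 1 promoter, that of Nuf2, with neither. They are RefSeq start sites on GRCm38.p6, read 5′ to 3′ on the strand of the gene, with matches to TTTGAA or CCAAT on either strand in capitals. A match on the other strand reads TTCAAA or ATTGG.
Cdk1: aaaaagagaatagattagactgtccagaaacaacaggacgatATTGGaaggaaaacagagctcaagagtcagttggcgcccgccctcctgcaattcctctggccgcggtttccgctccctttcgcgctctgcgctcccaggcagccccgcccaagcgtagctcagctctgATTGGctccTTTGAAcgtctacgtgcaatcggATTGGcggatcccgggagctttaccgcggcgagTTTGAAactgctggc
Ccnb2: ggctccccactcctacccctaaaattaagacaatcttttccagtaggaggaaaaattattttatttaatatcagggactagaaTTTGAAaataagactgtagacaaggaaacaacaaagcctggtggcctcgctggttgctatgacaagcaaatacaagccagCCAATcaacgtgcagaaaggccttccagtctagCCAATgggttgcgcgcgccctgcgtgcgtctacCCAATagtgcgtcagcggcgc
Cdc20: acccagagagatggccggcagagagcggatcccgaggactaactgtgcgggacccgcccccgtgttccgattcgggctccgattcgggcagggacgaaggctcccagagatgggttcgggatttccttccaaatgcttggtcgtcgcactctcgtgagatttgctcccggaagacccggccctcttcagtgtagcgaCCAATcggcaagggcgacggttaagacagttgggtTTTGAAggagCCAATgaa
Ube2c: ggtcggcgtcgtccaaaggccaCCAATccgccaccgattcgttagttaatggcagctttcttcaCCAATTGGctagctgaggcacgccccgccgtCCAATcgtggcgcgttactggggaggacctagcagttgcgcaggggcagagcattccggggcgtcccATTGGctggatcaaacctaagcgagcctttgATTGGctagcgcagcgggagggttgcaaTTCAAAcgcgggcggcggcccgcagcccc
Top2a: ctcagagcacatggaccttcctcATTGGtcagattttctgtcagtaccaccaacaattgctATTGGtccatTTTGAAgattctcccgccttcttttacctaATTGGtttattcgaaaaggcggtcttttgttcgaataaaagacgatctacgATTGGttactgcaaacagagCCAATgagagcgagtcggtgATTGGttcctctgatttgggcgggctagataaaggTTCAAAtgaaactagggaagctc
Kif11: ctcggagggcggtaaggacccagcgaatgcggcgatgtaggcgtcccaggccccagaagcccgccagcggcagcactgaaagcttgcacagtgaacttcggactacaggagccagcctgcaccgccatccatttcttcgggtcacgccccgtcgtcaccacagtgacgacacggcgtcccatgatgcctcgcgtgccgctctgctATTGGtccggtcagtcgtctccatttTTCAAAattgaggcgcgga
Mki67: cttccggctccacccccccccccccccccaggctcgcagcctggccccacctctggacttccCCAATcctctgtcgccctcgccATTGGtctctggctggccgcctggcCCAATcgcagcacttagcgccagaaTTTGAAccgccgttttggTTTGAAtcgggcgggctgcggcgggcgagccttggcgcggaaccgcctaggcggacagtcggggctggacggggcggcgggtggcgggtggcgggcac
Nuf2: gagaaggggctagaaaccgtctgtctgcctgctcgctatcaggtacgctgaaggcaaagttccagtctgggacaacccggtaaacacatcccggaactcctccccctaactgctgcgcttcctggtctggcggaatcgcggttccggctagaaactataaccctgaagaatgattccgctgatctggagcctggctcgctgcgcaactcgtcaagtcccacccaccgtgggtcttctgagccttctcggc

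The Cdk1 stretch is chr10:69352913-69353162 on the minus strand, that of Ccnb2 chr9:70421555-70421804 on the minus strand, and that of Cdc20 chr4:118437344-118437593 on the minus strand. Ube2c lies on the plus strand at chr2:164769679-164769928, Top2a on the minus strand at chr11:99024190-99024439, and Kif11 on the plus strand at chr19:37376132-37376381. The Mki67 stretch is chr7:135716380-135716629 and that of Nuf2 chr1:169531465-169531714, both on the minus strand. These stretches lie upstream of the annotated transcript start and hold no exon of that transcript.

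Promoters of 30 members were matched, with 31 start sites, over a window of 250 bases before to 50 bases after the start. No promoter is shown or counted for Ccna2, Aurkb, Kif20a and Tpx2. TTTGAA stood on either strand in 24 of the 31 windows (77.4%), against 13.4% of 18109 windows of the genes on the arrays. CCAAT stood in 25 (80.6%, against 37.4%), and both motifs stood in 22 (71%, against 5.23%). At least 2 CCAAT matches were found in 54.8% of the members' windows, against 12.8%. A spacing of 30 to 35 bases between the starts of a pair of CCAAT matches, chosen after the windows had been seen, was present in 25.8% of them, against 2.14%. Of the printed promoters, those of Cdk1, Ccnb2 and Ube2c have this spacing and the others do not: CCAAT on the minus strand starts at -80 and at -48 before Cdk1, and on the plus strand at -87, -54 and -21 before Ccnb2. The median GC content was 60.7% in the members' windows and 58.3% in those of all genes on the arrays. For comparison, the windows of a list of DNA replication genes held TTTGAA in 11.8%, CCAAT in 61.8% and both in 8.82%. Windows of other mitosis genes outside the 34, from the lists given further on, held TTTGAA in 44.6%, CCAAT in 65.1%, both in 32.5% and at least 2 CCAAT in 38.6%, so the motifs are not particular to the members. The motifs can overlap, and some matches lie after the start, outside the printed stretch. A match is a string of letters and no measured binding.

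Each of the 33 measured mitosis genes had a higher mean level in the Tim-3+ group of TIL, set against the Tim-3- group, and 32 rises passed the test, the exception being Hmmr. The median rise over the 33 was 1.24 on the log2 scale, against 0.011 over all genes. Of the 33, 31 also rose from naive to Tim-3- cells, with a median of 2.91 over the 33 against -0.06 over all genes, and in Tim-3+ cells they stood a median of 4.31 above naive cells. The exceptions against naive cells were Kif23, which fell, and Hmmr, which did not pass, while all 33 rose from naive to Tim-3+ cells. Some tumour markers rose in the same comparison. Of 12 melanoma markers 3 were higher and 2 lower in Tim-3- than naive cells, and 7 were higher and 2 lower in Tim-3+ than naive cells. The pigment genes Tyrp1 and Dct stood above naive cells by 3.05 and 2.24 in Tim-3- cells and by 3.66 and 2.92 in Tim-3+ cells. Kit, also on the marker list, stood above naive cells by 5.10 in Tim-3- cells and by 4.08 in Tim-3+ cells. The part of these markers in the changes of the mitosis genes against naive cells was not tested. These comparisons share arrays, since the Tim-3- arrays serve in both comparisons that involve them and the naive arrays in both against naive cells.

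Levels are mean log2 intensities ± SD over the arrays of a group, and changes are differences of those means ± SE from 1 limma fit over all 12 arrays, tested two-sided with Benjamini-Hochberg adjustment over the 18193 genes at a threshold of 0.05. Of all genes, 7.77% rose and 5.77% fell from Tim-3- to Tim-3+ cells at this threshold. Between Tim-3- and naive cells the shares were 16.1% and 18.3%, and between Tim-3+ and naive cells 20.1% and 21.4%. A rise of at least 2-fold in Tim-3+ over Tim-3- cells was seen for 25 of the 33 members and for 2.05% of all genes. In 32 members every Tim-3+ array lay above every Tim-3- array, as for 13.1% of all genes, and in 0 members did they lie wholly below (9.57%). Probes differ in brightness, so levels are compared between groups of arrays and never between genes. The arrays come without detection calls. In 13 members the naive mean lay below log2 5.71, percentile 40 of all genes, where a value may be background, and their changes against naive cells are then at best lower bounds.

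**Figure D1:**
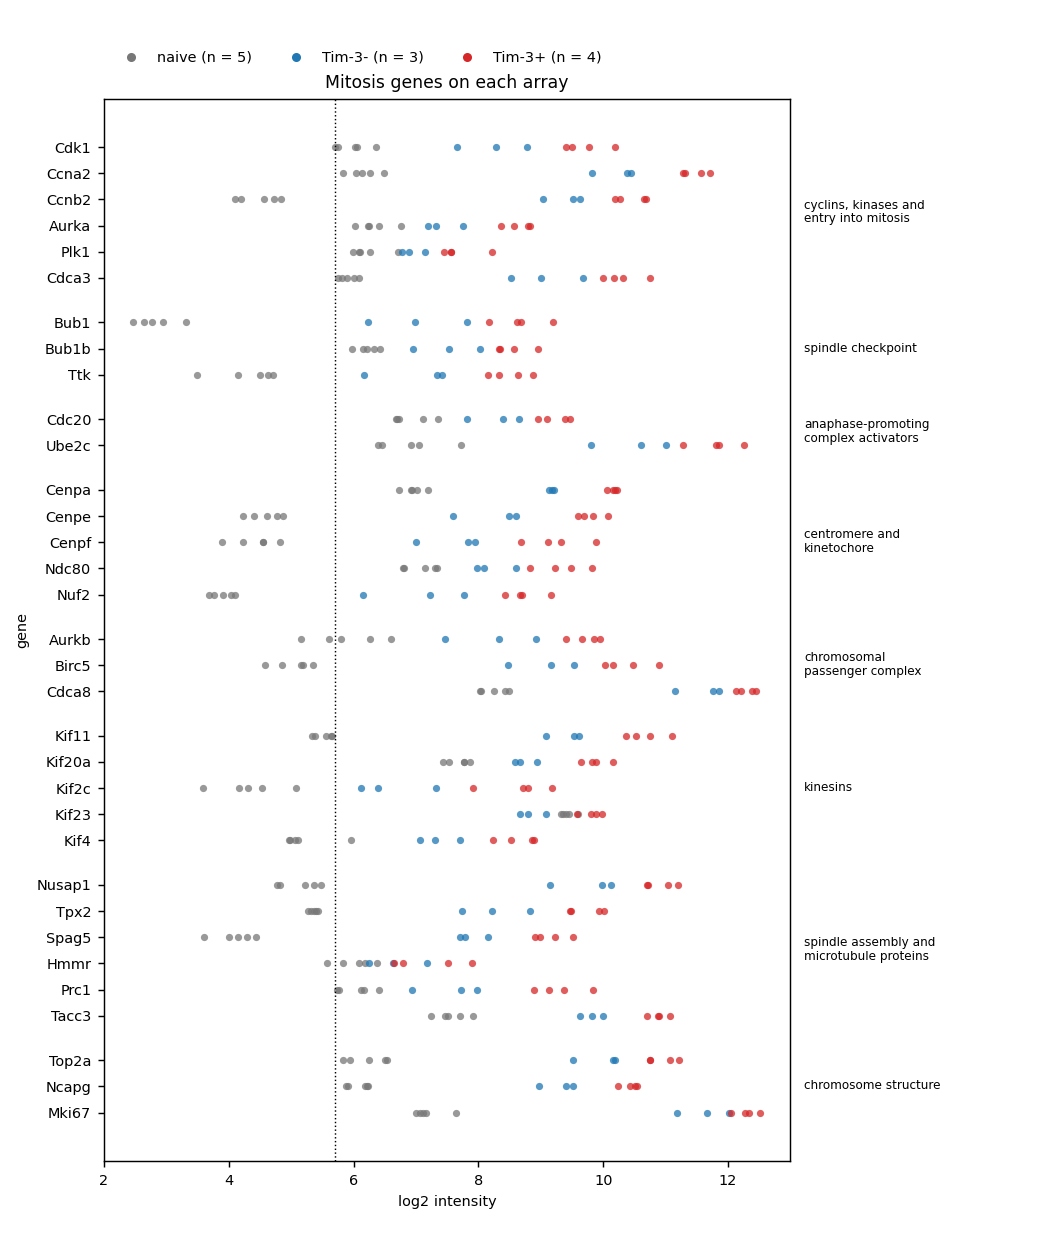
Each row is 1 mitosis gene and each point 1 array, placed by its log2 intensity, with genes grouped by role and arrays coloured by group (naive, n = 5; Tim-3-, n = 3; Tim-3+, n = 4). The dotted line marks log2 5.71. Tim-3+ points lie to the right of all Tim-3- points in 32 of 33 rows, the exception being Hmmr, and in the row of Kif23 the Tim-3- points lie to the left of the naive points.

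The first role holds the cyclins, kinases and other genes of entry into mitosis, of which 6 of 6 measured rose in both TIL comparisons, with a median of 1.22 between Tim-3+ and Tim-3- cells and 2.71 between Tim-3- and naive cells. Cdk1, the kinase at the head of mitosis, measured 5.75, 6.36, 5.70, 6.03 and 6.06 on the naive arrays, 8.79, 7.66 and 8.28 on the Tim-3- arrays and 10.19, 9.77, 9.41 and 9.49 on the Tim-3+ arrays. The 3 groups did not overlap, and the lowest TIL value was that of Tim-3- replicate 2. The rise from Tim-3- to Tim-3+ cells was 1.47 ± 0.25, or 2.77-fold (adjusted p = 0.00116), after a rise of 2.26 ± 0.24 from naive to Tim-3- cells (adjusted p = 4.42e-06). Plk1, a kinase of mitotic entry and spindle assembly, moved least in this role. It measured 6.10, 5.98, 6.72, 6.09 and 6.26 in naive cells, 6.89, 6.78 and 7.15 in Tim-3- cells and 8.23, 7.57, 7.56 and 7.45 in Tim-3+ cells. Naive replicate 3 came within 0.06 of the lowest Tim-3- array, and Tim-3+ replicate 1 stood above the other Tim-3+ arrays. Plk1 rose by 0.76 ± 0.20 between the TIL groups (1.69-fold, adjusted p = 0.0213) and by 0.71 ± 0.19 from naive to Tim-3- cells (adjusted p = 0.0102). Between the TIL groups Plk1 did not pass when Tim-3- replicate 1 or 2 was left out (adjusted p = 0.0571 and 0.0955), nor against naive cells when Tim-3- replicate 3 was (adjusted p = 0.0588).

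The larger part of the cyclins' change lay between naive and Tim-3- cells. Ccnb2, which encodes cyclin B2, went from 4.48 ± 0.33 in naive cells to 9.40 ± 0.31 in Tim-3- cells and 10.45 ± 0.26 in Tim-3+ cells. Ccna2, which encodes cyclin A2 of S phase and mitotic entry, went from 6.15 ± 0.25 to 10.21 ± 0.35 and 11.47 ± 0.21, a further rise of 1.26 ± 0.18 between the TIL groups. The change of Ccnb2 from naive to Tim-3+ cells was 5.96 ± 0.18, from a naive level that may be background. Aurka, the Aurora kinase of the spindle poles, rose by 1.09 ± 0.17 from naive to Tim-3- cells and by 1.21 ± 0.18 from there to Tim-3+ cells. Cdca3, which helps to destroy an inhibitor of mitotic entry, rose by 3.16 ± 0.22 and 1.24 ± 0.23.

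All 3 spindle checkpoint genes rose at least 2-fold in both comparisons. Bub1, a checkpoint kinase at the kinetochore, measured 2.63, 3.31, 2.47, 2.95 and 2.77 in naive cells, 7.81, 6.24 and 6.99 in Tim-3- cells and 9.19, 8.62, 8.18 and 8.68 in Tim-3+ cells. The groups were apart, with naive values far under log2 5.71 and the Tim-3- arrays spread over more than 1 log2 unit. Its rise between the TIL groups was 1.65 ± 0.32, or 3.15-fold (adjusted p = 0.0029). Bub1b, which encodes the checkpoint protein BubR1, measured 6.16, 6.42, 6.32, 5.98 and 6.21 in naive cells, 8.02, 6.95 and 7.53 in Tim-3- cells and 8.96, 8.34, 8.33 and 8.57 in Tim-3+ cells. Tim-3- replicate 1 came within 0.31 of the lowest Tim-3+ array. The rise was 1.05 ± 0.22 (2.07-fold, adjusted p = 0.00494), after 1.28 ± 0.21 from naive to Tim-3- cells. Of the other Bub1b probe sets, 1 rose by 1.16 between the TIL groups and 1 changed by 0.03 and did not pass (adjusted p = 0.929 over all probe sets). Ttk, which encodes the checkpoint kinase Mps1, went from 4.30 ± 0.50 in naive cells to 6.97 ± 0.70 in Tim-3- cells and 8.50 ± 0.32 in Tim-3+ cells.

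Both genes that act with the anaphase-promoting complex rose. Cdc20, the activator that the checkpoint holds back, went from 6.92 ± 0.30 in naive cells to 8.29 ± 0.43 in Tim-3- cells and 9.23 ± 0.24 in Tim-3+ cells, a rise of 0.94 ± 0.21 between the TIL groups (1.91-fold). The brightest Cdc20 probe set is of a type marked by Affymetrix as sharing probes with other transcripts. Its other probe sets rose by 0.90 and 0.62 between the TIL groups. Ube2c, the ubiquitin-conjugating enzyme of the complex, went from 6.91 ± 0.54 to 10.47 ± 0.62 and 11.80 ± 0.40, a rise of 1.33 ± 0.33 (2.51-fold, adjusted p = 0.0154). The calls of both between the TIL groups were lost without Tim-3- replicate 2, with rises of 0.70 (adjusted p = 0.0543) and 0.99 (adjusted p = 0.0919). Their promoters, printed above, hold both motifs.

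The 5 genes of the centromere and kinetochore rose in both comparisons, with medians of 1.57 between the TIL groups, the highest of the 8 roles, and 3.16 between Tim-3- and naive cells. Nuf2, a subunit of the Ndc80 complex that binds microtubules, measured 4.10, 4.03, 3.77, 3.91 and 3.68 in naive cells, 7.77, 6.16 and 7.23 in Tim-3- cells and 9.17, 8.67, 8.42 and 8.70 in Tim-3+ cells. No group overlapped another, and Tim-3- replicate 2 was again the lowest TIL array. The rise between the TIL groups was 1.69 ± 0.29, or 3.22-fold (adjusted p = 0.00121), in a gene whose printed promoter holds neither motif. Cenpa, the histone H3 variant that marks centromeres, moved least of the 5 between the TIL groups. It measured 6.73, 6.93, 7.20, 6.91 and 7.02 in naive cells, 9.13, 9.17 and 9.22 in Tim-3- cells and 10.22, 10.06, 10.18 and 10.16 in Tim-3+ cells. The arrays of each TIL group lay within 0.2 of each other, and Tim-3- replicate 2 was not the lowest of its group. Cenpa rose by 0.98 ± 0.11 (1.97-fold, adjusted p = 3.67e-05), while its other 2 probe sets changed by 0.32 and 0.37 and did not pass (adjusted p = 0.0924 and 0.469 over all probe sets). Cenpe, a kinesin of the kinetochore, rose by 1.57 ± 0.22 between the TIL groups and Cenpf, a large kinetochore protein, by 1.66 ± 0.29. Ndc80 itself rose by 1.12 ± 0.22, after 1.15 ± 0.21 from naive to Tim-3- cells.

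The chromosomal passenger complex, which corrects wrong attachments and later acts in cytokinesis, is represented by its kinase Aurkb, by Birc5, which encodes survivin, and by Cdca8, which encodes borealin. Aurkb measured 6.60, 5.16, 5.60, 6.26 and 5.80 in naive cells, 8.92, 7.46 and 8.33 in Tim-3- cells and 9.95, 9.41, 9.66 and 9.86 in Tim-3+ cells. Tim-3- replicate 2 was the lowest TIL array, and the groups did not overlap. Aurkb rose by 1.48 ± 0.34 between the TIL groups (2.79-fold, adjusted p = 0.00921). Birc5 measured 5.35, 4.85, 5.19, 4.58 and 5.15 in naive cells, 9.53, 8.48 and 9.16 in Tim-3- cells and 10.89, 10.48, 10.03 and 10.16 in Tim-3+ cells. Its naive arrays lay under log2 5.71 and far from both TIL groups, which did not overlap. Birc5 rose by 1.34 ± 0.26 between the TIL groups (2.53-fold, adjusted p = 0.00295), after 4.03 ± 0.25 from naive cells. Cdca8 measured 8.25, 8.02, 8.43, 8.04 and 8.49 in naive cells, 11.86, 11.15 and 11.76 in Tim-3- cells and 12.44, 12.12, 12.20 and 12.38 in Tim-3+ cells. Most of its rise lay between naive and Tim-3- cells, at 3.34 ± 0.16, with 0.70 ± 0.17 between the TIL groups (1.62-fold, adjusted p = 0.0147). Without Tim-3- replicate 2 the TIL calls of Aurkb and Cdca8 were lost, at 1.09 (adjusted p = 0.0535) and 0.48 (adjusted p = 0.081).

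Among the 5 kinesins, the motor proteins of the spindle, all rose between the TIL groups, and they include both the largest rise of the 33 by the brightest probe set and the single fall against naive cells. Kif2c, which takes microtubules apart at the centromere, measured 4.53, 3.59, 4.30, 5.08 and 4.16 in naive cells, 6.39, 6.12 and 7.32 in Tim-3- cells and 8.71, 7.91, 8.79 and 9.18 in Tim-3+ cells. Tim-3- replicate 3 was the highest of its group and Tim-3+ replicate 2 the lowest of its own, with 0.59 between them. The rise was 2.04 ± 0.36, or 4.11-fold (adjusted p = 0.00154). This probe set too is of a type marked as sharing probes with other transcripts, and its size is not matched by the others of Kif2c, which changed by 1.40, 0.70 (adjusted p = 0.0651, not passed) and 1.54. Kif23, a motor of the central spindle and of cytokinesis, measured 9.36, 9.41, 9.32, 9.46 and 9.59 in naive cells, 8.67, 8.80 and 9.09 in Tim-3- cells and 9.98, 9.81, 9.58 and 9.89 in Tim-3+ cells. Every Tim-3- array lay below every naive array, and 1 Tim-3+ array (9.58) lay below the highest naive array (9.59). Kif23 fell by 0.57 ± 0.12 from naive to Tim-3- cells (adjusted p = 0.00191) and rose by 0.96 ± 0.13 from Tim-3- to Tim-3+ cells (1.94-fold, adjusted p = 0.000151), which left it 0.39 ± 0.11 above naive cells (adjusted p = 0.0118). Its next probe set by brightness changed by -0.26 from naive to Tim-3- cells and did not pass (adjusted p = 0.344 over all probe sets), but rose by 1.03 between the TIL groups. Another, with a mean of 3.06 over all arrays, changed by 0.58 from naive to Tim-3- cells, in the other direction (adjusted p = 0.0134). The fall of Kif23 therefore holds for its brightest probe set, and its rise between the TIL groups for the 2 bright ones.

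Kif11, the motor that pushes the spindle poles apart, went from 5.51 ± 0.15 in naive cells to 9.41 ± 0.28 in Tim-3- cells and 10.68 ± 0.32 in Tim-3+ cells. Kif4, a chromosome-bound motor, rose by 2.14 ± 0.23 and then 1.27 ± 0.24, and Kif20a, a motor of the cleavage furrow, by 1.05 ± 0.14 and then 1.15 ± 0.15. The plotted changes set these genes apart, with Kif11 far to the right and Kif20a and Kif2c close to the line of equal changes.

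The 6 genes of spindle assembly and microtubule bundling held the 1 member that did not pass between the TIL groups. Prc1, which bundles microtubules of the central spindle, measured 6.13, 6.40, 5.77, 5.73 and 6.17 in naive cells, 7.98, 6.94 and 7.72 in Tim-3- cells and 9.83, 9.36, 8.88 and 9.13 in Tim-3+ cells. The groups did not overlap, and the gap between the TIL groups was 0.90. Prc1 rose by 1.76 ± 0.26, or 3.38-fold (adjusted p = 0.000381). Hmmr, a microtubule-binding protein that is also known as a hyaluronan receptor, measured 6.19, 6.09, 5.82, 6.38 and 5.57 in naive cells, 7.18, 6.25 and 6.63 in Tim-3- cells and 7.90, 7.51, 6.65 and 6.79 in Tim-3+ cells. Its groups overlapped in both comparisons, and the differences of 0.68 ± 0.28 and 0.52 ± 0.30 did not pass (adjusted p = 0.0828 and 0.318). Against naive cells Hmmr passed with the sets of arrays as a block (0.72, adjusted p = 0.0116) and in a fit of the compared groups alone (adjusted p = 0.0390). The brightest Hmmr probe set is of the type that Affymetrix marks as sharing probes with other transcripts. Its other 4 probe sets differed between the TIL groups by 1.62, 1.22, 1.48 and 0.74, and all 4 passed over all probe sets (adjusted p between 0.0036 and 0.0216). The same 4 rose from naive to Tim-3- cells, by 2.19, 1.53, 3.15 and 0.57.

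Nusap1, which bundles spindle microtubules near chromosomes, rose by 4.62 ± 0.22 from naive to Tim-3- cells and by 1.16 ± 0.24 between the TIL groups. Its other probe set changed by 0.33, which did not pass, and by 1.03. Tpx2, which activates Aurora A on the spindle, rose by 2.91 ± 0.20 and 1.46 ± 0.21. Spag5, which encodes the spindle protein astrin, rose by 3.78 ± 0.19 and 1.28 ± 0.20, and Tacc3, which crosslinks spindle fibres, by 2.25 ± 0.15 and 1.07 ± 0.15.

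The 3 genes of chromosome structure rose steeply from naive to Tim-3- cells, by a median of 3.74, and had the smallest median between the TIL groups of the 8 roles, 0.99. Top2a, the topoisomerase that untangles sister chromatids, measured 5.95, 6.25, 6.54, 5.82 and 6.51 in naive cells, 10.20, 9.51 and 10.16 in Tim-3- cells and 11.22, 10.75, 10.76 and 11.08 in Tim-3+ cells. The groups were apart, with 0.55 between the nearest TIL arrays. It rose by 3.74 ± 0.20 and then by 0.99 ± 0.21 (1.99-fold, adjusted p = 0.00549). Ncapg, a subunit of condensin, measured 5.90, 6.18, 6.22, 5.88 and 6.24 in naive cells, 9.41, 8.97 and 9.51 in Tim-3- cells and 10.50, 10.43, 10.24 and 10.53 in Tim-3+ cells. The Tim-3+ arrays lay within 0.3 of each other and above the Tim-3- arrays. Ncapg rose by 1.13 ± 0.15 between the TIL groups (2.19-fold, adjusted p = 0.000123).

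Mki67, which encodes Ki-67, the coat protein of mitotic chromosomes that is used as a stain for cycling cells, changed between the TIL groups less than all others but Hmmr. It measured 7.06, 7.65, 7.11, 7.0 and 7.17 in naive cells, 12.02, 11.18 and 11.67 in Tim-3- cells and 12.52, 12.34, 12.05 and 12.28 in Tim-3+ cells. Tim-3- replicate 1 and Tim-3+ replicate 3 were only 0.03 apart, while all TIL arrays stood at least 3.53 above the naive arrays. Mki67 rose by 4.42 ± 0.19 from naive to Tim-3- cells (21.5-fold, adjusted p = 5.86e-10) and by 0.67 ± 0.20 from there to Tim-3+ cells (1.60-fold, adjusted p = 0.0345). The latter change did not pass when Tim-3- replicate 2 or 3, or Tim-3+ replicate 1, 2 or 4, was omitted (adjusted p from 0.0628 to 0.187).

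The sizes of the 2 changes differed among the members. The change from naive to Tim-3- cells was larger than that from Tim-3- to Tim-3+ cells in 17 members by a contrast of the same limma fit, as in 8.49% of all genes. It was smaller in 1, Kif23 (9.1% of all genes), and the other 15 did not pass. Mki67 and Ccnb2 had differences of 3.75 ± 0.34 and 3.86 ± 0.36 between both changes, and Nusap1 one of 3.46 ± 0.41. These contrasts used the brightest probe set of each gene, and other probe sets did not always give the same sizes. The other of Nusap1 changed by 0.33 (adjusted p = 0.360, limma, not passed) and then by 1.03. Next by brightness, that of Top2a rose by 0.90 and 0.65 and that of Bub1 by 1.53 and 1.37. Those of Ccna2 (4.07 and 1.51), Kif11 (4.54 and 1.01) and Ncapg (4.30 and 1.39) kept the larger change from naive cells. The change between the TIL groups made up 13.2% of the whole log2 rise from naive to Tim-3+ cells in Mki67, 17.3% in Cdca8, 17.6% in Ccnb2, 39.4% in Cdk1, 47.3% in Kif2c, 52.6% in Aurka and 53.8% in Prc1, with a median of 33.5% over the 33. Since 13 naive means may be background, the share of those genes is at most what is given. A total of 31 members were higher in both changes, as were 3.3% of all genes.

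**Figure D2:**
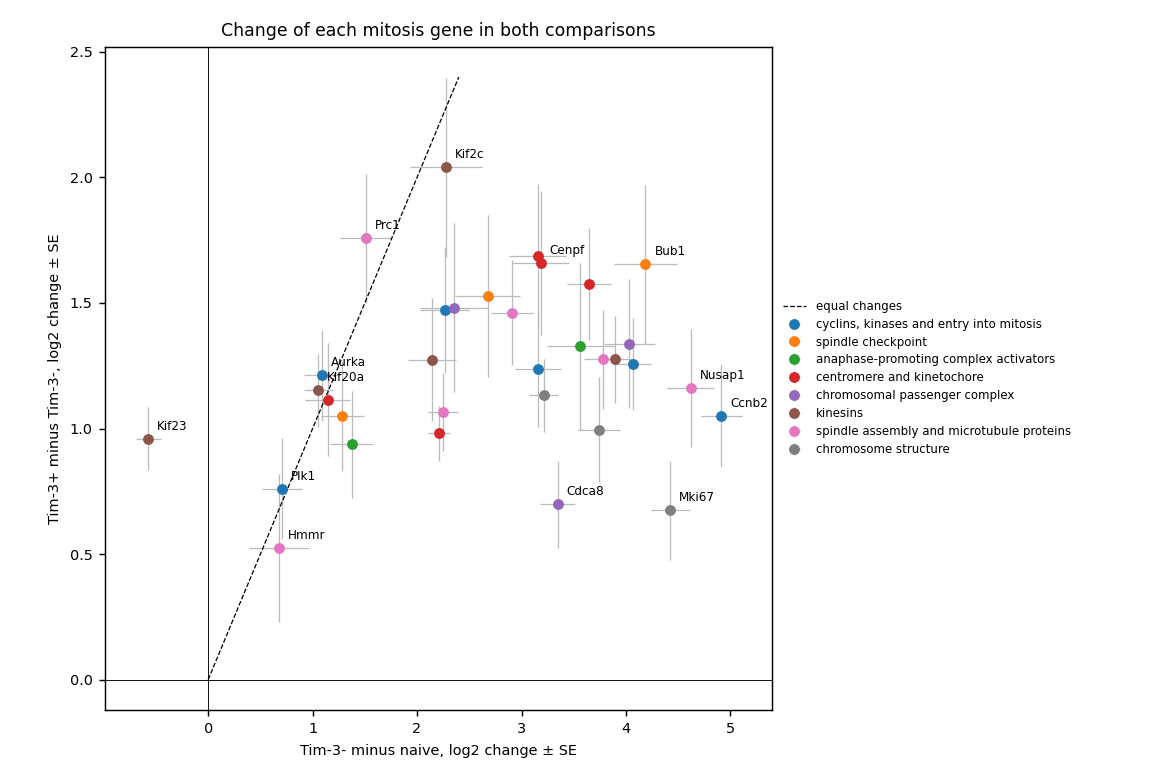
Each point is 1 mitosis gene, placed by its log2 change from naive to Tim-3- cells (horizontal) and from Tim-3- to Tim-3+ cells (vertical), with bars of ± SE and colours for the role. The dashed line marks equal changes. Most points lie to the right of the line, Mki67 at 4.42 and 0.67 is among the farthest from it, Kif2c is the highest at 2.04 (by its brightest probe set), and Kif23 lies left of zero at -0.57.

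Across arrays, the members moved together. Averaged over the 33 genes, the Tim-3+ arrays lay 4.21, 3.77, 3.69 and 3.97 above the naive mean, the Tim-3- arrays 2.92, 2.23 and 2.88, and the naive arrays between -0.08 and 0.05. All Tim-3+ arrays stood above all Tim-3- arrays. Tim-3- replicate 2 was the lowest of its group in 29 of 33 members, against 30.1% of all genes, and Tim-3+ replicate 1 was the highest of its group in 27, against 29.2%. Without Tim-3- replicate 2, all 33 changes between the TIL groups kept their direction, with a median of 1.05. Plk1, Cdc20, Ube2c, Aurkb, Cdca8 and Mki67 then no longer passed, and Hmmr did not pass either way. In such bulk samples, fewer cells of a type and less RNA per cell cannot be told apart, so these values do not say how many cells were dividing.

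The order of the arrays was much alike in the 8 roles. For the spindle checkpoint genes the means above naive were 3.28, 2.00 and 2.87 on the Tim-3- arrays and 4.56, 3.98, 3.78 and 4.18 on the Tim-3+ arrays. For the kinesins they were 1.68, 1.51 and 2.09, and 3.33, 2.84, 2.98 and 3.24. For chromosome structure they were 4.04, 3.39 and 3.95, and 4.91, 4.68, 4.52 and 4.80, so that Tim-3- replicate 2 was the lowest in each of these roles and Tim-3+ replicate 1 the highest.

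**Figure D3:**
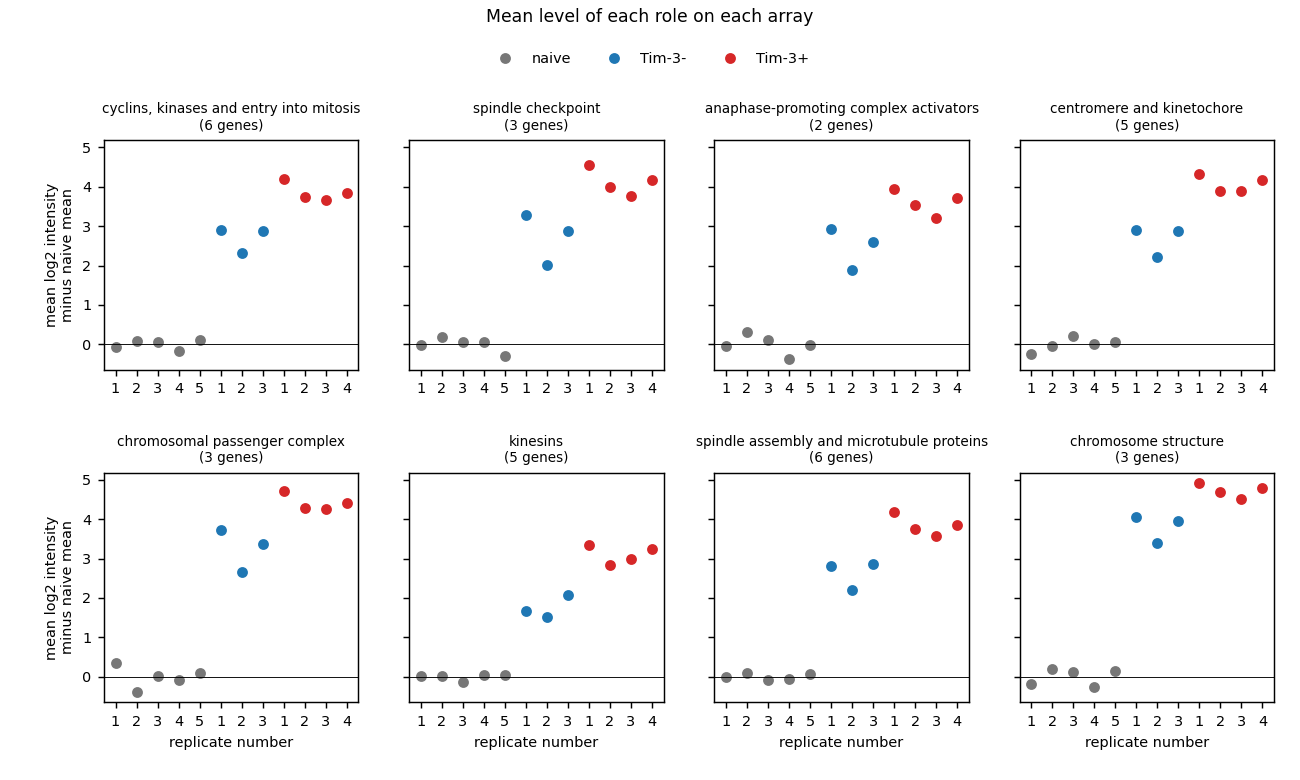
Each panel is 1 role, each point 1 array, and the vertical axis gives the mean log2 intensity of the role's genes minus their naive mean, with replicate numbers of each group on the horizontal axis. In all 8 panels the 4 Tim-3+ points lie above the 3 Tim-3- points, and Tim-3- replicate 2 is the lowest TIL point, at 2.00 for the spindle checkpoint and 1.51 for the kinesins.

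Several facts of the arrays bear on these values. CD8 T cell markers were bright in all groups, with mean levels for naive, Tim-3- and Tim-3+ cells of 12.82, 12.63 and 12.85 for Cd8a and 12.49, 12.29 and 12.33 for Cd3d. Of the 8 measured, 2 were lower in Tim-3- and 3 in Tim-3+ than in naive cells, among them Cd8b1, which fell by 0.76 and 0.70, and Cd5, which fell by 0.37 and 0.45. Between the TIL groups 1 fell, Cd2, by 0.33 (adjusted p = 0.0459). Of 12 melanoma markers, none passed between the TIL groups by limma (at an unadjusted p under 0.05, 1 was higher and 1 lower), and their summed intensity ran from 977 to 1357 in Tim-3- arrays, from 723 to 1689 in Tim-3+ arrays and from 941 to 1155 in naive arrays. These sums are carried in part by Trpm1 and Pmel, whose probe sets were at 9.03 and 8.05 in naive cells and fell in TIL. Tim-3+ replicate 2 had the lowest sum, with Tyrp1 at 4.67 and Dct at 4.92, and its mitosis mean was 3.77. Tim-3+ replicate 1, the highest for mitosis genes, also had the highest melanoma sum (1689), and the part of tumour RNA in its level was not tested. The 12 macrophage markers summed to between 590 and 692 in Tim-3- arrays and between 466 and 592 in Tim-3+ arrays, Cd68 fell from 8.28 to 7.46, and Apoe stood at 6.25 and 6.22. B cell markers summed to between 654 and 837 in naive arrays and to at most 281 in TIL arrays. The mean of Cd79b was 8.89 for naive samples, 6.37 for the Tim-3- group and 5.59 for the Tim-3+ group, and that of Cd79a was 6.63, 5.66 and 5.75. The part of these cells in the naive levels was not tested. The neutrophil markers, led by S100a9 and Csf3r, summed to at most 193 in TIL arrays, and the erythroid markers, led by Alas2 and Epor, to at most 160, with none of either list passing between the TIL groups by limma (at an unadjusted p under 0.05, 0 neutrophil markers and 1 erythroid marker).

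Deviations within groups parted the arrays into sets that the labels do not name, set A (naive replicates 1 and 2, Tim-3- replicate 1, Tim-3+ replicates 1 and 2) and set B (the other 7). They also differ in the array's own controls for RNA ends: the log2 signal at the 3′ end minus that at the 5′ end, averaged over 5 control transcripts, ran from -0.03 to 0.13 in set A and from 0.23 to 0.35 in set B. With the sets as a block, all 33 members kept the outcome of their test between the TIL groups. Within set A, with 1 Tim-3- array, the median rise of the members was 1.09, and within set B it was 1.31. The fit within set A assumes that its lone Tim-3- array varies like the other groups. In that fit Cdk1 stood at 1.19 and Bub1 at 1.09.

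The members had 74 probe sets in all, more than 1 in 23 genes. Between the TIL groups 60 of the 74 were higher, none was lower (0 of 74 by limma) and the 14 others did not pass, while 7.24% of all 34945 probe sets were higher and 5.83% lower. In 10 probe sets all group means lay below log2 5.71, and none of these passed. Of the 41 that were not the brightest of their gene, 28 were higher. Between Tim-3- and naive cells 60 were higher and 1 lower, the brightest of Kif23, against 16.6% and 19.1% of all probe sets.

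**Figure D4:**
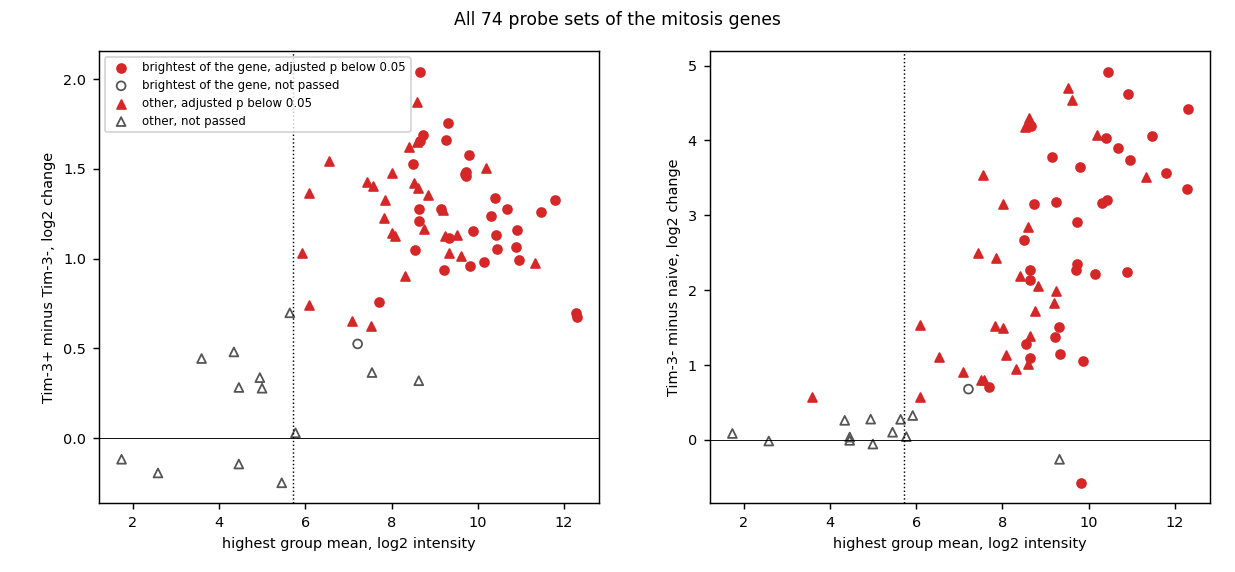
Each point is 1 of the 74 probe sets of the mitosis genes, placed by its highest group mean in log2 intensity (horizontal) and its log2 change (vertical), for Tim-3+ minus Tim-3- on the left and Tim-3- minus naive on the right. Circles are the brightest probe set of a gene and triangles the others, filled where the adjusted p is below 0.05, and the dotted line marks log2 5.71. All 10 points left of the line in the left panel are open, and 60 of the 64 right of it are filled and above zero.

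Other genes of the cell cycle were taken from lists outside the 34, and of their 137 measured genes 99 were higher and 1, Nipbl, lower between the TIL groups at an unadjusted p under 0.05 by limma, as were 14% and 10.4% of all genes. At the adjusted threshold the counts were as follows. Of 20 other kinesin and spindle genes 18 rose between the TIL groups and 0 fell, with a median of 1.16. The largest were Dlgap5, which stabilises spindle microtubules (1.66 ± 0.17), and Aspm, a spindle pole protein (1.54 ± 0.27), and the smallest Troap (0.13 ± 0.13, adjusted p = 0.609) and Ckap5 (0.46 ± 0.13, adjusted p = 0.0280). Of 23 other centromere and kinetochore genes 15 rose and 0 fell, with a median of 0.84. Spc25 of the Ndc80 complex (1.60 ± 0.23) and the centromere gene Cenph (1.52 ± 0.22) changed most, and Zwint (-0.10 ± 0.12) and Cenpt (0.13 ± 0.17) least, neither of which passed. Zwint had risen from naive to Tim-3- cells by 0.95 ± 0.11.

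Of 26 other genes of the checkpoint, mitotic kinases and exit, 15 rose and 0 fell, with a median of 0.70. The kinases Nek2 (1.64 ± 0.33) and Pbk (1.51 ± 0.22) changed most. Cdc27, a subunit of the anaphase-promoting complex, and Cdc25b, a phosphatase of mitotic entry, stood at -0.20 ± 0.13 and -0.15 ± 0.15 and did not pass. Among 17 other condensin and cohesin genes 7 rose and 1 fell, with a median of 0.29. The condensin genes Smc2 (1.16 ± 0.23) and Ncaph (1.14 ± 0.18) rose, the cohesin loader Nipbl fell by 0.37 ± 0.11 (adjusted p = 0.0406), and the cohesin subunit Rad21 stood at 0.01 ± 0.13. Between Tim-3- and naive cells 6 genes of that list rose and 5 fell.

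A list of 17 regulators that act on mitotic promoters held genes of the E2F, MuvB, B-Myb, FoxM1 and NF-Y groups, and Rbl1 and Rbl2. Of these 17 genes 8 rose between the TIL groups and 0 fell, with a median of 0.49. E2f7, a repressor of the E2F family, rose by 1.75 ± 0.37 and Mybl2, which encodes B-Myb, by 1.08 ± 0.18. Among the genes of the NF-Y subunits, which bind CCAAT boxes, Nfya stood at -0.12 ± 0.12 and Nfyc at 0.03 ± 0.14, the lowest values of the list, and neither passed. The remaining NF-Y gene, Nfyb, rose by 0.32 ± 0.09 (adjusted p = 0.0346). Of 34 DNA replication genes 25 rose and 0 fell, with a median of 0.73. Clspn, an adaptor of the replication checkpoint (1.34 ± 0.18), and Chaf1b, a chromatin assembly subunit (1.27 ± 0.17), changed most, while Mcm6 of the replicative helicase (0.08 ± 0.11) and the licensing factor Cdt1 (-0.18 ± 0.09) did not pass. Whether the 33 mitosis genes changed more than these lists was not tested.

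**Figure D5:**
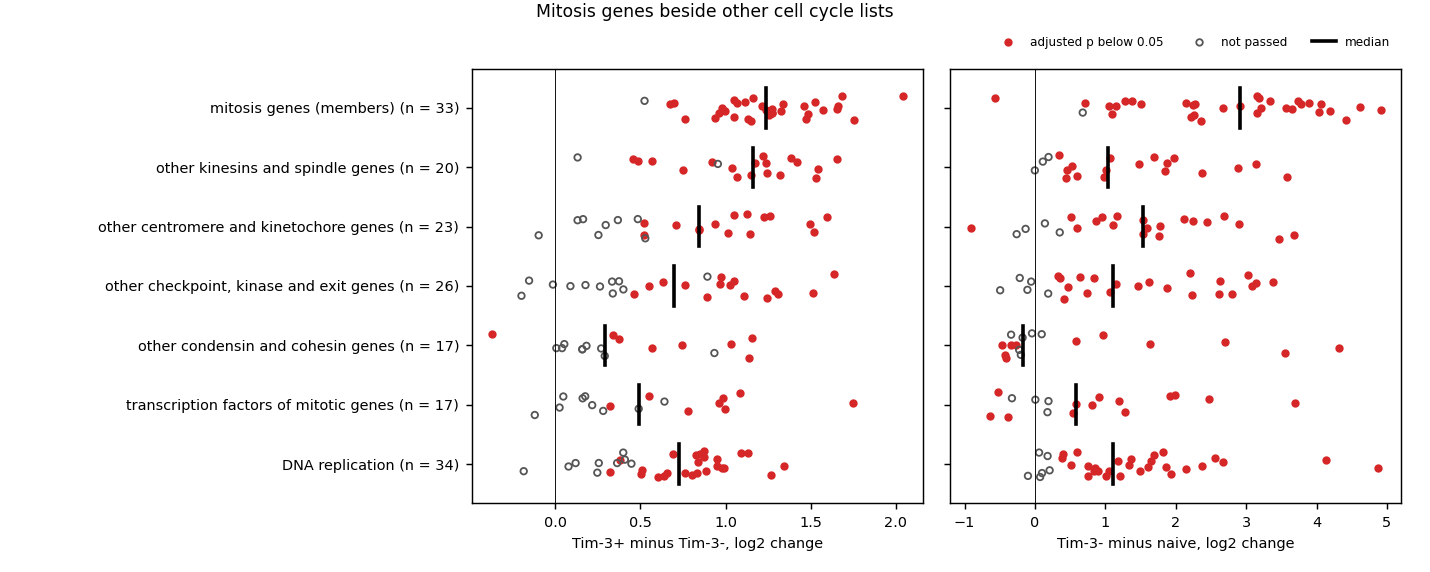
Each point is 1 gene of the list named at the left, placed by its log2 change from Tim-3- to Tim-3+ cells (left panel) and from naive to Tim-3- cells (right panel), filled where the adjusted p is below 0.05, with a bar at the median of the list. The vertical position within a list carries no value. The medians in the left panel run from 1.24 for the mitosis genes through 0.73 for DNA replication to 0.29 for condensin and cohesin.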

How the data were processed

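The deposited table holds 1 linear intensity per probe set and array (45101 probe sets, of which 64 are array controls), and the submitters' processing notes name RMA and the affy package for these values. Not given in the sources used here: their versions and the step back to a linear scale. Array medians of the deposited intensities ran from 58.8 to 63.0, and precision is limited by the number of arrays. The log2 of each deposited intensity was taken. A gene took its brightest probe set, by the mean over all arrays, among the 34945 that name 1 gene, with no filter on dim genes, which gave 18193 genes.

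Group means were fitted over all 12 arrays with limma 3.58.1 in R 4.3.3, with default empirical Bayes moderation, after the code had been tested on simulated data. Tables and plots were made with Python 3.11.15, numpy 2.4.6, pandas 2.3.3 and matplotlib 3.10.9. Promoters came from RefSeq. Same-numbered arrays of Tim-3+ and naive cells deviated together (4 of 4 correlations above 0.1), and a replicate block left the 33 calls of that comparison in place. The arrays of each such pair lie in the same set, A or B, so the correlations do not show that the samples were paired.

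The members, roles, lists and tests were chosen with earlier results of these data known. Every array is printed for Mki67, Top2a, Cdk1, Aurkb, Plk1, Birc5 and the members with the largest and smallest change between the TIL groups in each role of at least 3 genes. Of each other cell cycle list the 2 largest and 2 smallest changes are named, and of each marker list the 2 brightest genes. Tyrp1, Dct, Kit, Cd8b1, Cd5, Cd2 and Nfyb were named after their values had been seen. Alternatives covered the choice of probe set, normalization, a filter on dim genes, moderation, array weights, the samples fitted, a replicate block, the sets of arrays, a minimum of 2-fold and leaving out each array.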

Additional observations from a re-analysis of the deposited data

Results flagged for a closer look

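In 3 cases 1 array stood far from the others of its group, judged by its gap to the nearest array as a share of the group's range. The gap test covered 66 groups of 4 or 5 values, and chance alone gives about 5% of them (3.3 expected). Plk1 measured 8.23 on Tim-3+ replicate 1, while the other Tim-3+ arrays lay between 7.45 and 7.57. Kif4 measured 5.96 on naive replicate 2, with the other naive arrays between 4.96 and 5.11. On the same naive array Mki67 measured 7.65, with the others between 7.0 and 7.17. The 3 Tim-3- arrays were too few for this test.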

How the results depend on the processing

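All changes of the 33 genes kept their direction in every alternative run. Between the TIL groups, 27 of 33 kept the same test outcome whichever array was left out. They include Hmmr, which passed in none of these fits. Most calls that were lost were lost without Tim-3- replicate 2. Over the 12 other alternatives 14 kept the same outcome in all and 19 changed in at least 1. Within set A, 16 of 33 were called, where the comparison rests on 1 Tim-3- array. The median rise from naive to Tim-3- cells was 2.14 with the mean of a gene's probe sets and ran from 2.62 to 3.17 when arrays were left out, the lowest without Tim-3- replicate 3 and the highest without Tim-3- replicate 2. With the mean of probe sets the median from naive to Tim-3+ cells was 3.36. Under that setting Hmmr passed between the TIL groups at 1.12 (adjusted p = 0.00737), Cdca3 was lost at 0.31 (adjusted p = 0.0982), and Kif23 against naive cells was lost at -0.09 (adjusted p = 0.639). With the minimum of 2-fold, 25, 30 and 32 members were called in the comparisons of the TIL groups, Tim-3- with naive and Tim-3+ with naive cells. Of all genes, 2.05%, 6.99% and 8.25% rose at least 2-fold in these comparisons. For the fits with arrays left out, with blocks or within sets, the shares of all genes called are not given here. Among same-numbered arrays, 1 pair of the TIL groups and 1 of Tim-3- and naive cells correlated below zero in their deviations (-0.131 and -0.15). Both pairs join Tim-3- replicate 2 of set B to a replicate 2 of set A. The 4 pairs of Tim-3+ and naive cells, each within the same set, correlated between 0.128 and 0.319. Since the signs followed the sets, these correlations cannot tell whether replicate numbers pair the samples. With the replicate number as a block 31, 31 and 33 members were called in the same order, with medians of 1.24, 2.95 and 4.27, and the TIL call of Mki67 was lost at 0.71 (adjusted p = 0.0521), as it was after renewed quantile normalization and in a fit of the TIL groups alone (adjusted p = 0.0525 and 0.0627). Where no cause is visible from the setting itself, the cause was not tested.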
